A study of Homo sapiens with 12 samples.

Results

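Aminoacyl-tRNA synthetases are the enzymes that join each amino acid to its transfer RNA, and their genes were followed in cisplatin-treated ovarian cancer cells. The 38 genes were taken by symbol, as a letter followed by ARS and a number, together with EPRS1, FARSA and FARSB, from 17508 genes in the deposited count table. They comprise 21 genes of cytosolic enzymes, 8 of which belong to the multi-synthetase complex, and 17 genes of mitochondrial enzymes. KARS1 and GARS1, whose products serve both compartments, were counted as cytosolic. TYK-nu cells, which the study calls an immortalized ovarian cancer line, received 15 μM cisplatin or DMSO, the solvent control. Poly(A)+ RNA was sequenced after 24 or 72 h. Each of the 4 groups (DMSO 24 h, cisplatin 24 h, DMSO 72 h and cisplatin 72 h) had 3 libraries. All libraries came from the same cell line. The study states that the cells were grown and treated in triplicate, and in general that its experiments were repeated independently. It does not say how independent these triplicates were, so p-values measure only the spread between these libraries, which may be technical. For each gene the table gave exon counts, mostly from spliced RNA, and intron counts, from which the study inferred incomplete splicing.

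The cytosolic enzymes charge the transfer RNAs read by cytosolic ribosomes. Mitochondria use their own transfer RNAs, and the enzymes that charge them are encoded by nuclear genes, made in the cytosol and imported. Several cytosolic synthetase genes are known targets of ATF4, the transcription factor of the amino acid response, which binds elements whose core reads TGATGNAA.

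Promoter windows of RefSeq (GRCh38.p14, from 250 bases before to 50 bases after each transcription start) were matched for 30 of the 38 genes and searched on both strands for 4 motifs. The ATF4 core TGATGNAA was in the windows of 8 genes (26.7%), compared with 4.46% of the 27305 genes in the promoter table. These were AARS1, CARS1, GARS1, IARS1, MARS1, NARS1 and TARS1 among 16 cytosolic genes, and YARS2 among 14 mitochondrial genes. The ETS core CCGGAAG was in the windows of 16 genes (53.3%, compared with 12.2% of all), the E-box CACGTG in 4 (13.3%, compared with 8.77%) and the NRF1 motif GCATGCGC in 2 (6.67%, compared with 3.68%). Some genes had more than one window (39 windows in all), which counts in these shares, and per window the ATF4 core was in 20.5% of member windows and 3.62% of all. A match describes the letters only. The 30 bases around the match are given for 5 genes with the ATF4 core, for SARS1, the member with the largest exon change over time, and for both matches between the starts of HARS1 and HARS2, neighbours that are transcribed away from each other from starts 85 bases apart. Each sequence is written 5′ to 3′ on the strand of the named gene, and capitals mark the motif or its reverse complement.
AARS1, ATF4 core, chr16:70289675-70289704, minus strand: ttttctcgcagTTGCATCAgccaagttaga
MARS1, ATF4 core, chr12:57488053-57488082, plus strand: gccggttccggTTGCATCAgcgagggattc
GARS1, ATF4 core, chr7:30594834-30594863, plus strand: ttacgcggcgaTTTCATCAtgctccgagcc
IARS1, ATF4 core, chr9:92293692-92293721, minus strand: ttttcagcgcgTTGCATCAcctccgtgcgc
NARS1, ATF4 core, chr18:57621804-57621833, minus strand: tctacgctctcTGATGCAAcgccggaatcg
SARS1, ETS core, chr1:109213833-109213862, plus strand: tccaaccagccgCTTCCGGtcgcggggagg
HARS2, first ETS core, chr5:140691362-140691391, plus strand: agcaaggatgaCTTCCGGctatcgagtcgc
HARS2, second ETS core, chr5:140691436-140691465, plus strand: tccggctcctcCCGGAAGtgccgaagctgg
The AARS1 match began 187 bases before the transcription start and the GARS1 match 33 bases before it. The MARS1 match began 4 bases before the start and ran into the transcript, the IARS1 match began 13 bases before the start, and the NARS1 match began at base 15 of the transcript. These distances are from the RefSeq start of the window that holds the match. In GENCODE release 44, which lists further transcripts and starts, all 30 bases shown for AARS1, MARS1, GARS1, IARS1 and NARS1 lie in an annotated exon of the same gene, and both windows at HARS2 lie in an exon of HARS1. The second of them also lies in an exon of HARS2, the AARS1 window in an exon of DDX19B and the GARS1 window in an exon of GARS1-DT. SARS1 held no ATF4 core in its window.

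Total counts per library ran from 18526830 to 68753262, and intron totals from 1185012 to 4840181. All 38 genes passed the filter on low exon counts. Intron counts could be tested for 36 of them, since MARS2 had no intron entry and PARS2 held between 2 and 10 intron counts per library. Of the lineage markers, KRT18 was at 133 to 181 exon CPM (counts scaled to a common library size), KRT8 at 11 to 34.5 CPM and WT1 at 1.59 to 4.19 CPM, whereas PAX8 and KRT7 were at or near 0 (at most 0.0758 and 0.303 CPM). PTPRC was at 0 in all 12 libraries, and COL1A1 and ALB stayed at or below 0.174 and 0.0539 CPM. PECAM1, an endothelial marker, was at 1350 to 2490 CPM in every library and fell between 24 and 72 h by 0.82 on the log2 scale in DMSO and by 0.75 in cisplatin. PAX8, KRT7 and PECAM1 thus go against what is usual for an ovarian carcinoma line, and the identity of the cells rests on the labels alone. KRT8 rose over time by 1.29 and 1.42 on the log2 scale and EPCAM, which was at 0.117 to 1.68 CPM, by 2.34 and 2.55, while KRT18 fell by 0.37 and 0.27. WT1 fell by 0.78 in DMSO and was at -0.26 in cisplatin without a call. The part of these shifts in the changes of the synthetase genes over time was not tested.

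Levels of the 38 genes spanned more than 2 orders of magnitude in control cells. Exon CPM per kilobase of the canonical transcript are used here to compare genes, and CPM alone elsewhere. At DMSO 24 h, GARS1 (glycyl-tRNA synthetase) was at 407 ± 12.5 per kb (SD, n = 3) and YARS1 (tyrosyl-tRNA synthetase) at 404 ± 6.66, and their libraries overlapped. AARS1 (alanine) followed at 259 ± 3.21, KARS1 (lysine) at 246 ± 10.7 and SARS1 (serine) at 223 ± 2.76. From 187 down to 116 per kb lay EPRS1, MARS1, NARS1, TARS1, IARS1, LARS1, FARSA, IARS2, CARS1 and RARS1. QARS1, HARS1, VARS1, FARSB and WARS1 lay between 86.5 and 32.6 per kb. From 29.4 down to 8.1 per kb came, in this order, HARS2, CARS2, YARS2, NARS2, VARS2, LARS2, FARS2, TARS2, MARS2, AARS2, RARS2, EARS2 and WARS2.

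The lowest levels were those of SARS2 (4.97 ± 0.797 per kb), PARS2 (4.57 ± 0.356) and TARS3 (2.38 ± 0.15), which encodes a second cytosolic threonyl-tRNA synthetase. SARS2 overlaps another protein-coding gene model on the same strand, so its exon level and its ratio to SARS1 are uncertain. The median level was 139 per kb for the 21 cytosolic genes and 13.7 per kb for the 17 mitochondrial genes, of which IARS2 was highest at 119 ± 4.87. Of neighbours in this order, 20 pairs overlapped in their libraries and 17 did not. By 72 h in DMSO, SARS1 had the highest mean, at 462 ± 18.3 per kb, with GARS1 at 455 ± 15.9. In cisplatin at 72 h GARS1 was at 449 ± 7.3 and SARS1 at 438 ± 11.7. These ranges overlapped in both groups.

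**Figure D1:**
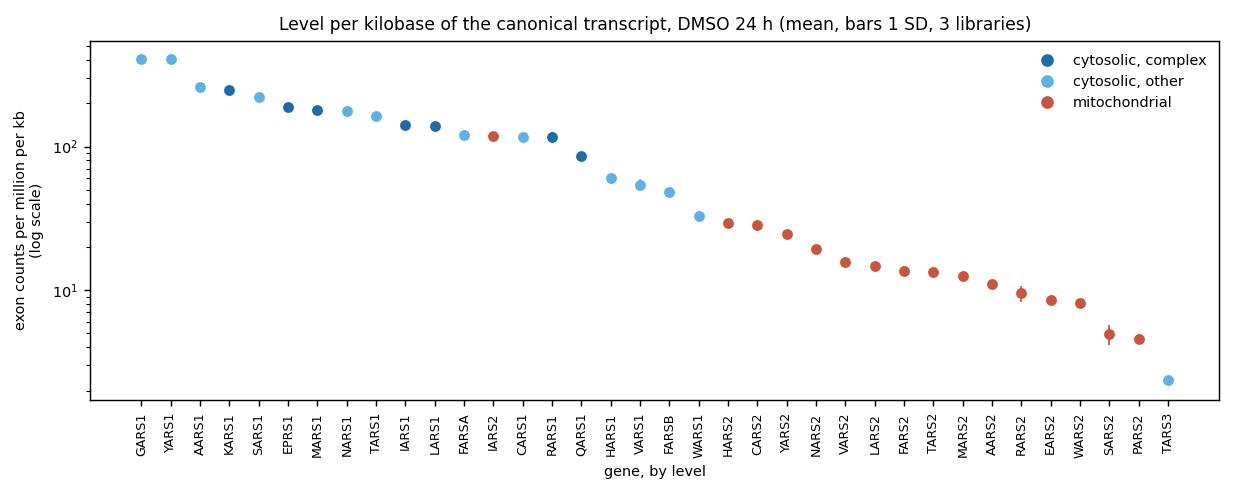
Exon CPM per kilobase of canonical transcript (log scale) at DMSO 24 h for 36 of the synthetase genes, ordered by level, with points for the mean and bars for 1 SD over 3 libraries. Mitochondrial enzymes (red) fill most of the lower ranks, except IARS2 at 119, and the cytosolic TARS3 is lowest at 2.38.

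Whether cisplatin altered these genes was asked at each time against DMSO. No member passed the test on exon counts. With edgeR's quasi-likelihood test and Benjamini-Hochberg adjustment, 0 of 38 members were called at 24 h and 0 at 72 h, where 0% and 0.0287% of the 10444 genes tested were called. At an unadjusted p under 0.05 there were 0 members at 24 h and 1 at 72 h, KARS1, compared with 260 and 1311 of all genes tested. DESeq2 called 0 members at either time, and 0 and 85 of all genes at 24 and 72 h. The largest difference was 0.11 on the log2 scale at 24 h and 0.14 at 72 h. The widest interval of 2 standard errors reached 0.289 to either side at 24 h and 0.275 at 72 h, so differences smaller than this could not be told from 0 for that member.

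KARS1 was the member nearest to a call. It was at 405, 437 and 408 CPM in DMSO at 72 h and at 391, 382 and 376 CPM in cisplatin, so the groups did not overlap, with a log2 difference of -0.12 (SE 0.0479, edgeR adjusted p = 0.315). At 72 h the cisplatin libraries of CARS1, NARS1 and RARS2 also lay below all 3 DMSO libraries, and those of AARS2 lay above them, where 9.3% of all genes tested lay below and 8.85% above. At 24 h this held for IARS1 alone, which lay below, where 3.09% of all genes lay below and 3.33% above. None of these members was called. The difference of the cisplatin effect between the times was called by edgeR for 0 of 38 members (background 0%), with IARS1 alone, and 985 of all genes, at an unadjusted p under 0.05 (edgeR adjusted p = 0.523).

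Between 24 and 72 h in DMSO, exon counts rose for 8 members and fell for 17, where 32.6% of all genes tested rose and 32.5% fell. In cisplatin, 9 rose and 16 fell, with a background of 32% and 31.5%. With both directions added, the share of members called was close to that of all genes, with fewer members rising and more falling than the background of each direction; this difference was not tested. Of the 25 calls in each comparison 24 were shared, 8 up and 16 down, EARS2 being called only in DMSO and IARS1 only in cisplatin, and the difference between the treatments was not called for either. Of the 21 cytosolic genes, 7 rose and 7 fell in DMSO, and 8 rose and 7 fell in cisplatin. Of the 17 mitochondrial genes, 1 rose and 10 fell in DMSO, and 1 rose and 9 fell in cisplatin. The difference between the compartments was not tested.

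The median log2 change in DMSO was 0.02 for cytosolic genes, -0.17 for mitochondrial genes and 0.01 for all genes tested. In cisplatin the medians were 0.01, -0.14 and 0.02. The DMSO and cisplatin time comparisons share no library, whereas each of them shares libraries with both comparisons of cisplatin against DMSO. Across the 38 genes their log2 changes correlated with a Pearson r of 0.979, as a description over genes, which are not independent, and 34 had the same sign. The median absolute difference between them was 0.06 and the largest 0.20. In bulk RNA, fewer cells with a transcript and less transcript per cell cannot be told apart. The 12 members called in neither comparison included LARS1, NARS1, TARS1, TARS3, YARS1, FARS2, RARS2, SARS2, TARS2, VARS2 and WARS2.

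**Figure D2:**
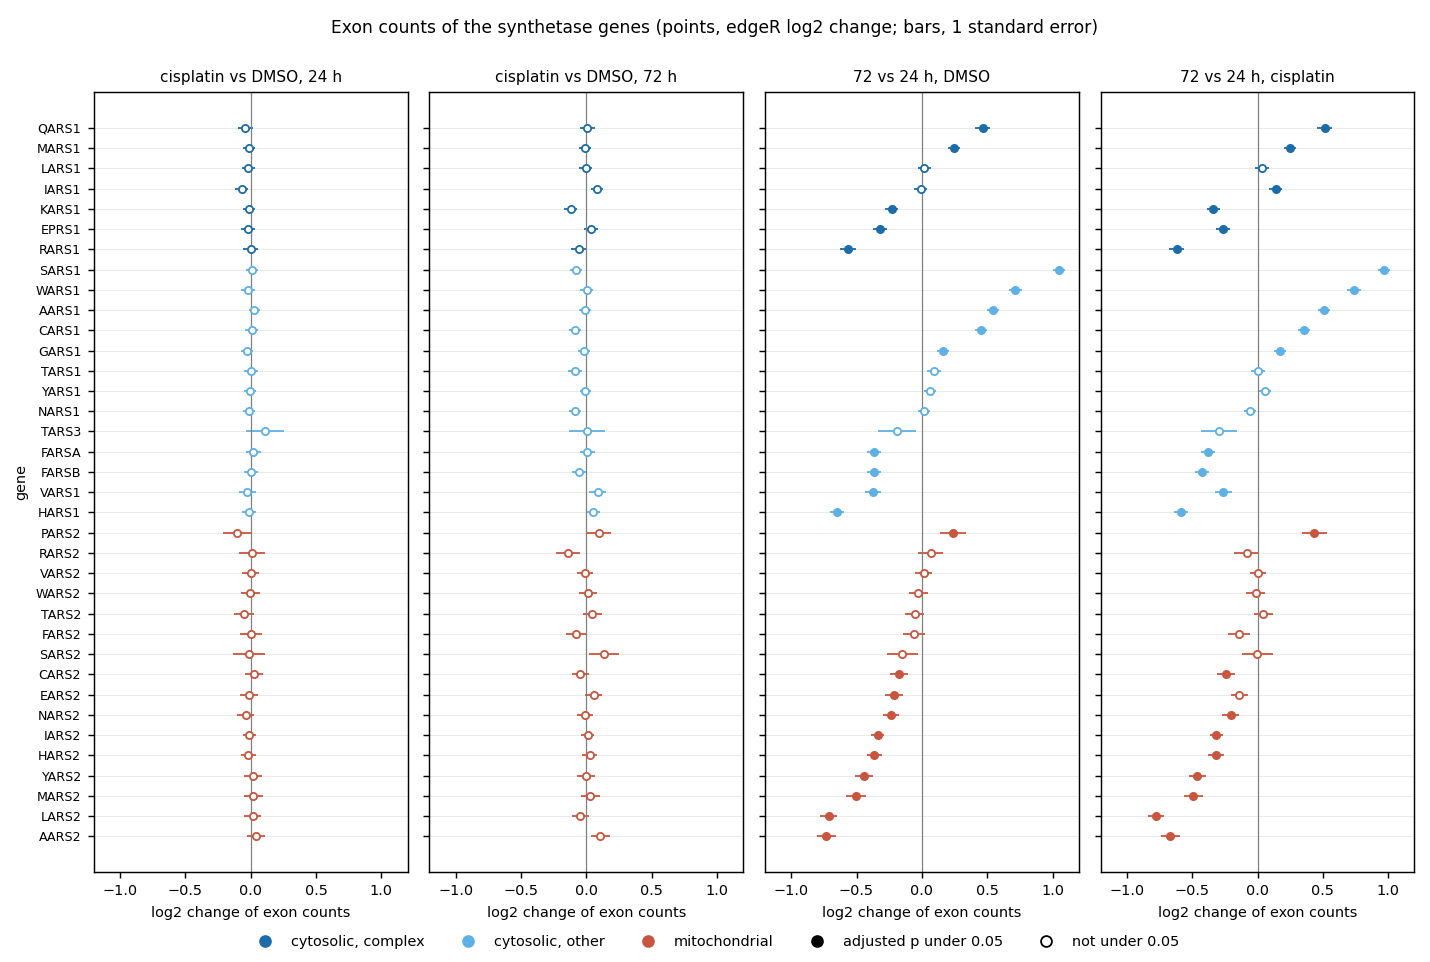
Log2 change of exon counts of 36 of the synthetase genes in each comparison (points, edgeR estimates; bars, 1 SE; filled, adjusted p under 0.05). No point is filled for cisplatin against DMSO, and over time the mitochondrial genes (red) lie mostly left of 0, from -0.73 for AARS2 to 0.24 for PARS2 in DMSO.

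SARS1, the seryl-tRNA synthetase (chr1:109213918-109238182, plus strand), showed the largest change. Positions are those of GRCh38 in GENCODE release 44. Its exon level was 423, 433 and 424 CPM in DMSO and 433, 425 and 430 CPM in cisplatin at 24 h. At 72 h it was 852, 921 and 882 CPM in DMSO and 827, 865 and 825 CPM in cisplatin. The times did not overlap, and the level rose 2.07-fold in DMSO (log2 1.05, SE 0.0458, edgeR adjusted p = 2.15e-15) and 1.95-fold in cisplatin (log2 0.97).

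WARS1, the tryptophanyl-tRNA synthetase (chr14:100333790-100376805, minus strand), was at 84, 86.7 and 87.1 CPM in DMSO at 24 h and at 144, 142 and 137 CPM at 72 h. In cisplatin it went from 81.7, 85.8 and 86.5 CPM to 145, 139 and 139 CPM. The increase was 1.64-fold in DMSO and 1.67-fold in cisplatin (edgeR adjusted p = 2.14e-11 and 1.25e-11), with no overlap between the times.

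AARS1 (chr16:70251983-70289707, minus strand) rose from 896, 896 and 877 CPM to 1290, 1280 and 1330 CPM in DMSO, a log2 change of 0.55 (SE 0.0446). In cisplatin it rose from 868, 938 and 917 CPM to 1310, 1300 and 1270 CPM, a change of 0.51. QARS1, the glutaminyl enzyme of the complex (chr3:49095932-49105130, minus strand), rose from 222, 213 and 199 CPM to 272, 298 and 307 CPM in DMSO and from 202, 209 and 206 CPM to 279, 311 and 292 CPM in cisplatin (log2 0.47 and 0.51). For both genes all libraries at 72 h lay above all those at 24 h of the same treatment.

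Smaller increases were those of CARS1 (cysteine; log2 0.45 in DMSO and 0.36 in cisplatin), MARS1 (methionine; 0.24 and 0.25) and GARS1 (0.16 and 0.17). GARS1 went from 959, 994 and 1020 CPM to 1070, 1140 and 1120 CPM in DMSO. IARS1, the isoleucyl enzyme, rose in cisplatin (log2 0.14, edgeR adjusted p = 0.0159), from 613, 603 and 600 CPM to 715, 633 and 652 CPM, against -0.01 in DMSO. The call of IARS1 was lost without cisplatin 24 h replicate 3 or cisplatin 72 h replicate 1, with log2 changes of 0.08 to 0.18 over all single-library omissions. MARS1 overlaps DDIT3 and ARHGAP9 on the opposite strand, and the strand option of the counting is not given in the sources used here, so reads shared with them are uncertain.

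**Figure D3:**
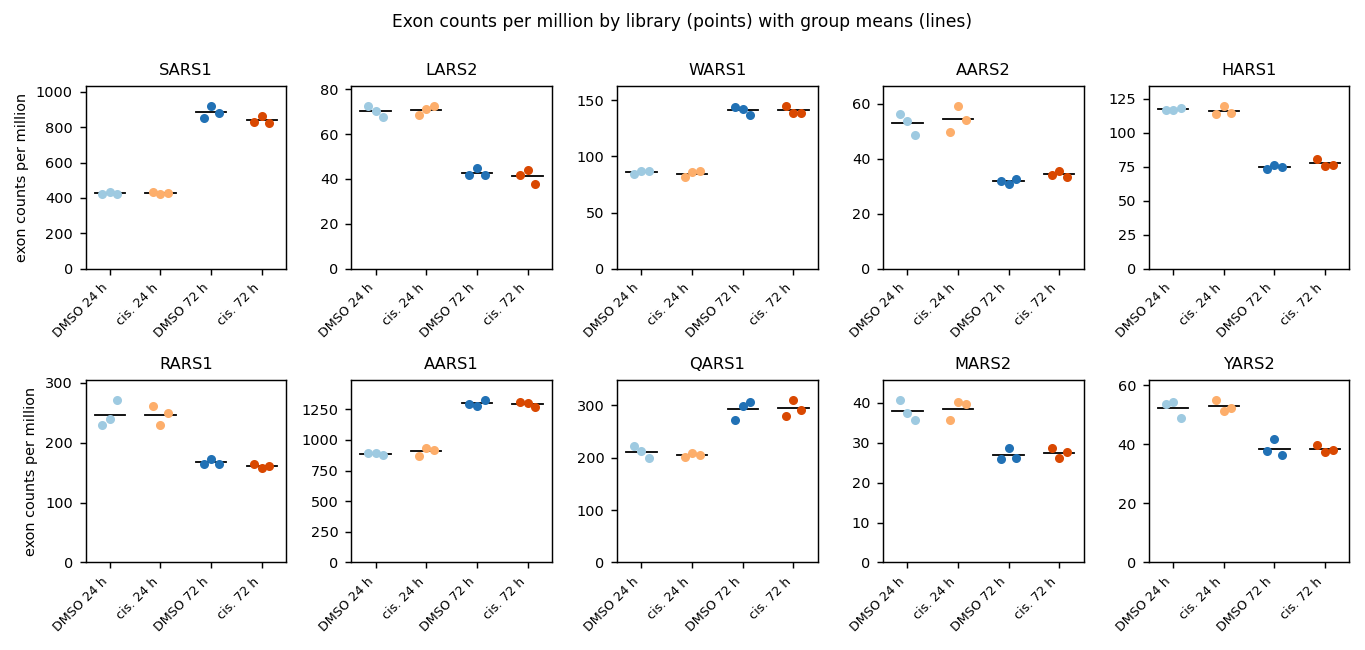
Exon CPM in each of the 12 libraries (points) with group means (lines) for the 10 members with the largest changes over time. SARS1, WARS1, AARS1 and QARS1 are higher at 72 h (blue, DMSO; orange-red, cisplatin) and the other 6 lower, with no overlap between 24 and 72 h within a treatment.

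Of the cytosolic genes that fell, HARS1, the histidyl-tRNA synthetase (chr5:140673035-140691537, minus strand), had the largest estimate in DMSO. It was at 117, 117 and 118 CPM at 24 h and at 73.3, 76.5 and 74.6 CPM at 72 h in DMSO, a log2 change of -0.65 (SE 0.0534, edgeR adjusted p = 1.8e-10). In cisplatin it was at 114, 120 and 115 CPM and then at 81, 75.3 and 76.2 CPM, a change of -0.59. HARS2, its mitochondrial counterpart on the other side of the shared promoter region (chr5:140691430-140699305, plus strand), fell by a smaller estimate. It went from 68.3, 73.4 and 76.2 CPM to 55.1, 55.4 and 58.6 CPM in DMSO (log2 -0.36) and by 0.32 in cisplatin, again with no overlap between the times. The annotated gene bodies of HARS1 and HARS2 overlap on opposite strands, HARS1 also overlaps DND1 and WDR55, and HARS2 overlaps ZMAT2, so counts near these ends are uncertain.

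RARS1, the arginyl enzyme of the complex (chr5:168486451-168519301, plus strand), went from 230, 239 and 272 CPM to 164, 172 and 165 CPM in DMSO, and from 262, 230 and 249 CPM to 164, 157 and 161 CPM in cisplatin. Its log2 changes were -0.56 and -0.62, with no overlap, the latter being the largest decrease of a cytosolic member in cisplatin. EPRS1, which joins the glutamyl and prolyl enzymes in a single protein, fell from 847, 904 and 971 CPM to 695, 736 and 747 CPM in DMSO (log2 -0.32) and by 0.27 in cisplatin.

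FARSA and FARSB encode the subunits of the cytosolic phenylalanyl enzyme and fell together. FARSA went from 237, 213 and 208 CPM to 174, 168 and 169 CPM in DMSO and FARSB from 317, 338 and 328 CPM to 245, 264 and 253 CPM, each a log2 change of -0.37. In cisplatin the changes were -0.38 and -0.43. VARS1 (valine) fell by 0.37 in DMSO and 0.26 in cisplatin, and KARS1 by 0.23 and 0.34.

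The largest decreases among mitochondrial genes were those of AARS2 and LARS2, the alanyl and leucyl enzymes. AARS2 (chr6:44298731-44313347, minus strand) went from 56.4, 53.6 and 48.8 CPM to 31.9, 31 and 32.6 CPM in DMSO, and from 49.8, 59.3 and 54 CPM to 34.1, 35.5 and 33.3 CPM in cisplatin. LARS2 (chr3:45388561-45554726, plus strand) went from 72.5, 70.4 and 67.4 CPM to 41.7, 45 and 41.7 CPM in DMSO, and from 68.7, 71.3 and 72.6 CPM to 41.9, 44 and 37.9 CPM in cisplatin. At 72 h both genes lay below every 24 h library of the same treatment, with log2 changes of -0.73 (SE 0.0723) and -0.71 (SE 0.065) in DMSO and of -0.67 and -0.78 in cisplatin.

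MARS2 (methionine; chr2:197705369-197708395, plus strand) went from 40.8, 37.4 and 35.6 CPM to 25.8, 28.6 and 26.1 CPM in DMSO, with log2 changes of -0.50 in DMSO and -0.49 in cisplatin. YARS2 (tyrosine; chr12:32727490-32755897, minus strand) went from 53.5, 54.2 and 48.8 CPM to 37.7, 41.6 and 36.3 CPM, with changes of -0.44 and -0.46. IARS2 (isoleucine) fell by 0.34 and 0.32, NARS2 (asparagine) by 0.24 and 0.21 and CARS2 (cysteine) by 0.17 and 0.24. EARS2, which charges the mitochondrial glutamate and glutamine transfer RNAs with glutamate, fell by 0.21 in DMSO and was at -0.14 in cisplatin.

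PARS2, the prolyl enzyme, was the only mitochondrial member that rose, from 11.2, 11.3 and 9.81 CPM to 12.2, 13.8 and 12.3 CPM in DMSO (log2 0.24, edgeR adjusted p = 0.0418) and by 0.44 in cisplatin (adjusted p = 0.0005). In DMSO its call was lost with DESeq2 (adjusted p = 0.0508). With edgeR it was lost without the filter on low counts (0.0719), with the replicate number as a block (0.0525) and in a fit of the 6 libraries compared (0.0518). It was also lost without any 1 of 5 libraries. Those were DMSO 24 h replicates 1 and 3, DMSO 72 h replicates 2 and 3 and cisplatin 72 h replicate 3, and the log2 change ran from 0.18 to 0.27. The call of CARS2 in DMSO was lost without DMSO 24 h replicate 1 or 2 or DMSO 72 h replicate 1 or 3, with log2 changes from -0.20 to -0.15. TARS3, the lowest cytosolic member, was at 8.86, 7.85 and 8.14 CPM in DMSO at 24 h and at 7.73, 5.84 and 8.06 CPM at 72 h, and overlapped (log2 -0.19, SE 0.144).

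For 14 amino acids, a cytosolic and a mitochondrial gene could be set against each other within each library, which removes library size. The log2 ratio of cytosolic to mitochondrial exon counts was higher in all 3 libraries at 72 h than in all 3 at 24 h for 10 pairs in DMSO and lower for 3, and 1 pair overlapped. In cisplatin 9 pairs were higher, 3 lower and 2 overlapped. Separation over time was common, since the exon CPM of single genes were higher at 72 h without overlap for 34% of all genes tested and lower for 33.4% in DMSO (34% and 33.2% in cisplatin). No such share was computed for ratios of other genes. The median shift was 0.41 in DMSO and 0.49 in cisplatin. The alanine pair shifted most, by 1.28 in DMSO, as AARS1 went from 16.9 to 40.8 times the count of AARS2. SARS1 went from 45 to 102 times the uncertain count of SARS2, a shift of 1.18. The pairs that shifted the other way were those of histidine (-0.29), arginine (-0.63) and valine (-0.39), whose cytosolic member fell.

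Between cisplatin and DMSO, all 14 pairs overlapped at 24 h. At 72 h the ratio in cisplatin lay below DMSO for 3 pairs, those of alanine and serine among them, and above it for valine, and 10 pairs overlapped, where the exon CPM of 9.3% of all single genes lay below and of 8.85% above. None of the genes in these pairs was called for cisplatin. As a share of all exon counts, the 17 mitochondrial genes went from 0.119% ± 0.00287 (SD, n = 3) at 24 h to 0.0988% ± 0.00104 at 72 h in DMSO. The 21 cytosolic genes went from 0.928% ± 0.0217 to 1.02% ± 0.0101. In cisplatin the mitochondrial share went from 0.119% ± 0.00106 to 0.101% ± 0.00197 and the cytosolic share from 0.921% ± 0.0103 to 1.02% ± 0.0351.

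**Figure D4:**
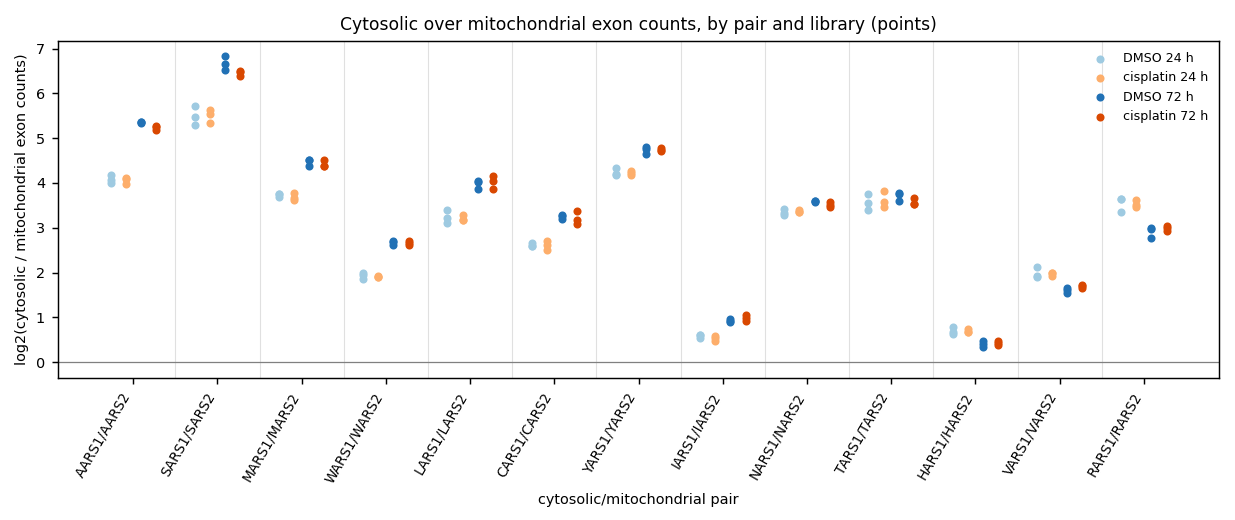
Log2 ratio of cytosolic to mitochondrial exon counts in each library (points) for 13 of the pairs of genes that serve the same amino acid, coloured by group. The 72 h libraries (dark) sit above the 24 h libraries (light) for most pairs in DMSO, with AARS1 to AARS2 showing the largest shift (1.28), and below them for the histidine, valine and arginine pairs.

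The 8 genes with the ATF4 core in the promoter window were not uniform over time. In DMSO 4 of them rose (AARS1, CARS1, GARS1 and MARS1), 1 fell (YARS2) and 3 were not called. In cisplatin IARS1 joined those that rose, giving 5 up, 1 down and 2 not called. Over all genes tested 32.6% rose and 32.5% fell in DMSO, and 32% and 31.5% in cisplatin. Of the 22 matched genes without the core, 4 rose and 13 fell in DMSO, and 4 rose and 12 fell in cisplatin. SARS1, WARS1 and QARS1, which rose by more than MARS1 and GARS1, were among those without it. NARS1 and TARS1, which hold the core, were at 0.02 and 0.09 on the log2 scale in DMSO and at -0.06 and 0.01 in cisplatin.

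Introns are removed soon after transcription, and intron counts were a small part of all counts. Which RNA they came from was not tested. The intronic share of a member's counts at DMSO 24 h ran from 0.273% (IARS2) to 35.5% (SARS2). SARS2 (chr19:38915266-38930763, minus strand) overlaps an unnamed protein-coding gene model on the same strand, so its counts are uncertain. Over all members, intron counts made up 2.95% to 3.45% of counts per library, compared with 6.26% to 7.17% over all genes. Between cisplatin and DMSO, edgeR called 0 of 36 members at 24 h and at 72 h (background 0.0208% and 0.0416%). At an unadjusted p under 0.05 there were 5 members at 24 h (FARSB, TARS1, RARS2 and TARS2 among them) and 2 at 72 h (CARS1 among them), compared with 481 and 621 of all 9618 genes tested. DESeq2 also called 0 members, and 0 and 3 of all genes at 24 and 72 h. The difference of the cisplatin effect between the times was called for 0 members (background 0.0416%), with 5, and 549 of all genes, at an unadjusted p under 0.05.

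Over time in DMSO, intron counts rose for 9 members and fell for 4, where 17.2% of the 9618 genes tested rose and 16.2% fell. In cisplatin 8 rose and 5 fell (background 16.4% and 15.4%). Those higher in DMSO included IARS1, MARS1, AARS1, CARS1, FARSB, SARS1, TARS1 and WARS1, and lower were EPRS1, HARS1, AARS2 and SARS2. Higher in cisplatin were IARS1, LARS1, MARS1, AARS1, GARS1, SARS1, WARS1 and WARS2, and lower were HARS1, TARS3, AARS2, LARS2 and SARS2, with AARS2 the only called member whose libraries overlapped between the times. With the intron counts scaled by the exon library sizes the split became 7 up and 5 down in DMSO and 5 up and 7 down in cisplatin. That scaling moved the median intron change of all genes from -0.01 to -0.08 in DMSO and from -0.02 to -0.09 in cisplatin. It called 3074 and 2873 of all genes in either direction, where the main fit called 3216 and 3062. Of the members called for exon counts, 9 were also called for intron counts in DMSO, 8 of them in the same direction, and 9 in cisplatin, all in the same direction. Across the 36 genes, exon and intron changes correlated with r = 0.743 in DMSO and 0.681 in cisplatin, as a description.

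The intron counts of SARS1 followed its exon counts. They were at 490, 563 and 537 intron CPM, which are relative to the intron counts of the library, in DMSO at 24 h and at 1020, 985 and 938 at 72 h, with no overlap, and the log2 changes were 0.89 (SE 0.0884) in DMSO and 0.91 in cisplatin. WARS1 introns rose by 0.72 and 0.87 on the log2 scale, from 33.9, 17.3 and 21.3 to 39.9, 43 and 37.4 intron CPM in DMSO. The DMSO call of WARS1 was lost without DMSO 24 h replicate 2, with changes of 0.51 to 1.06 over single omissions. LARS2 introns fell in cisplatin by 0.73, from 18.9, 21 and 24.8 to 13.8, 13.1 and 11.2 intron CPM, with the call lost without any 1 of 4 cisplatin libraries.

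For other genes exon and intron counts differed in call or in direction. FARSB (chr2:222566899-222656092, minus strand) introns rose in DMSO while its exons fell, from 65.7, 86.6 and 72.3 to 120, 116 and 96.8 intron CPM, with no overlap (log2 0.55, SE 0.141, edgeR adjusted p = 0.00147), and were at 0.27 in cisplatin (adjusted p = 0.112). TARS1 (chr5:33440696-33468091, plus strand) introns rose in DMSO by 0.75, from 40.8, 54 and 37.6 to 78.7, 85 and 62.8 intron CPM, whereas its exon change was 0.09. WARS2 (chr1:119031216-119140654, minus strand) introns rose in cisplatin by 0.98 (SE 0.322, edgeR adjusted p = 0.0153) on few counts, with 21, 12 and 14 intron counts at 24 h and 57, 77 and 39 at 72 h. Without cisplatin 24 h replicate 2 the WARS2 change was 0.52 and not called. WARS2 overlaps RBMX2P3 and RPS3AP12 on the same strand and WARS2-AS1 and WARS2-IT1 on the opposite strand. Its intron counts are therefore uncertain. TARS3 introns fell in cisplatin by 0.86, from 17.2, 14.1 and 25.6 to 9.58, 8.61 and 12.6 intron CPM, beside an exon change of -0.29 that was not called (edgeR adjusted p = 0.0679), and this call was lost without cisplatin 24 h replicate 3, cisplatin 72 h replicate 1 or cisplatin 72 h replicate 2.

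**Figure D5:**
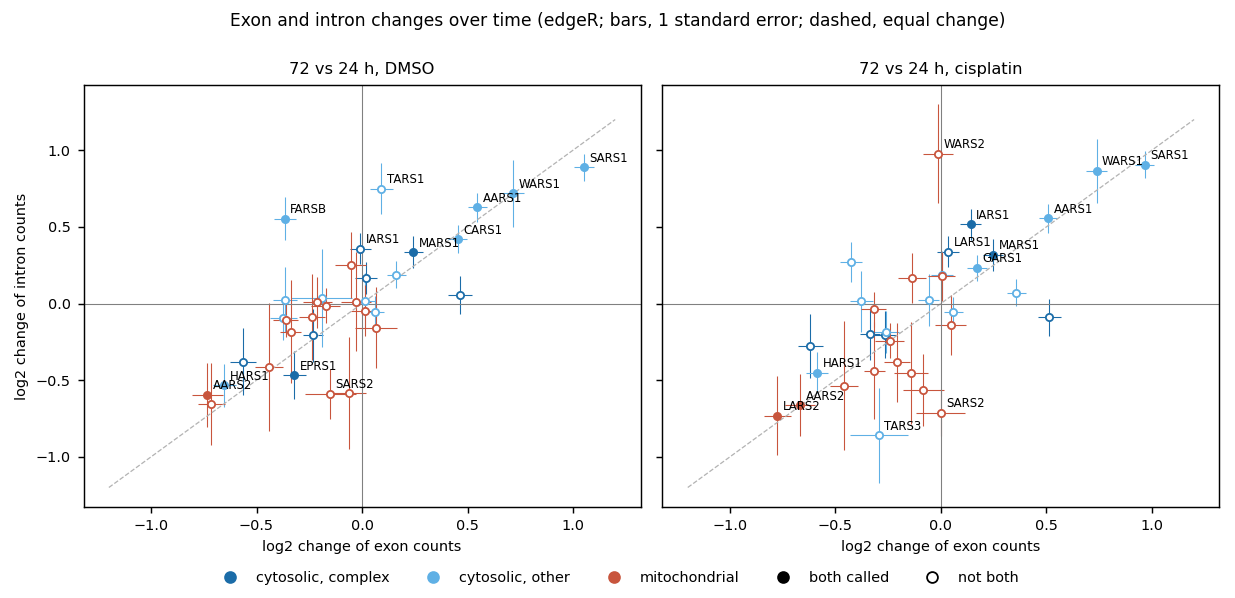
Log2 change of intron counts against that of exon counts over time for the members drawn, in DMSO (left) and cisplatin (right), with bars of 1 SE and a dashed line of equal change; filled points were called for both and names mark called intron counts. SARS1, WARS1 and AARS1 lie near the line at upper right, while FARSB in DMSO lies at -0.37 for exons and 0.55 for introns.

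The exon/intron ratio, the measure of RNA maturation used in the study, was tested by logistic regression, which takes reads as independent, and by edgeR, which takes in the spread between libraries. For cisplatin against DMSO at 24 h, logistic regression called a lower ratio for 8 members (among them AARS1, CARS1, FARSB, RARS2, TARS1, TARS2 and YARS1) and a higher ratio for 0, with a background of 10.7% lower and 0.765% higher. At 72 h it called 5 lower (among them FARSB, IARS1, LARS1 and SARS1) and 0 higher, with a background of 9.7% and 1.73%. Without cisplatin 24 h replicate 2 the 24 h count was 3, without DMSO 24 h replicate 2 it was 4, and without DMSO 72 h replicate 3 the 72 h count was 2. The calls over all genes moved too, numbering 1110 at 24 h and 1144 at 72 h, and 245 to 1555 and 729 to 1138 with single libraries left out, the lowest without cisplatin 24 h replicate 2 and without DMSO 72 h replicate 1. With edgeR, 0 members were called at either time (background 0% and 0.0213%), with 6 and 1 members, and 594 and 585 of all 9380 genes, at an unadjusted p under 0.05. By logistic regression, the median log2 difference of the 37 members tested was -0.13 at 24 h and -0.07 at 72 h. Over all genes tested it was -0.11 and -0.07, with 31.5% and 35.3% of genes above 0.

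TARS2, the mitochondrial threonyl enzyme, had exon/intron ratios of 21.3, 19.1 and 17.5 in DMSO at 24 h and of 11.6, 12.2 and 13.8 in cisplatin, so the groups did not overlap. The logistic log2 difference was -0.65 (SE 0.163, adjusted p = 0.0021), and edgeR gave -0.64 with an adjusted p of 0.729.

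Over time in DMSO, logistic regression called 6 members with a higher and 4 with a lower ratio (background 22.5% and 11.1%), and edgeR called 1 and 2 (background 8.09% and 3.37%). In cisplatin the counts were 7 and 5 by logistic regression (background 29% and 11.6%) and 3 and 2 by edgeR (background 8.36% and 3.56%). The edgeR ratio calls were QARS1 up and FARSB and TARS1 down in DMSO, and CARS1, QARS1 and SARS2 up and FARSB and WARS2 down in cisplatin. FARSB had ratios of 66.7, 57 and 59.6 at 24 h and of 30.3, 33.2 and 37.5 at 72 h in DMSO, and of 40.9, 44.1 and 52.4 and then 28.4, 27.7 and 33.2 in cisplatin. Its ratio fell by 0.85 in DMSO and by 0.62 in cisplatin (edgeR adjusted p = 0.000124 and 0.00226), with no overlap in either.

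QARS1 had ratios of 29.9, 23.8 and 23 at 24 h and of 33.7, 37.8 and 34.9 at 72 h in DMSO, a log2 change of 0.48 by edgeR (adjusted p = 0.0136), and of 23.3, 23.4 and 22.6 and then 36.3, 38.9 and 35.2 in cisplatin, a change of 0.67. The DMSO call of QARS1 was lost without DMSO 24 h replicate 2, DMSO 24 h replicate 3 or DMSO 72 h replicate 2. SARS2 rose in cisplatin by 0.79, from 1.88, 1.63 and 1.77 to 2.66, 3.13 and 3.38, a call lost without cisplatin 24 h replicate 2. WARS2 fell in cisplatin by 0.94, from 23.9, 64.7 and 28.2 to 18.3, 19 and 16.8, and cisplatin 24 h replicate 2 held the ratio that stands apart, without which the change was -0.50 and not called. Leaving out any cisplatin 72 h library also ended the WARS2 call, any 1 of 5 cisplatin libraries that of CARS1, and DMSO 24 h replicate 1, DMSO 24 h replicate 3 or DMSO 72 h replicate 2 that of TARS1 in DMSO.

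The genes around the synthetases were described from lists chosen with earlier results known. Of 7 genes of complex scaffold proteins and cytosolic elongation factors, exon counts of 4 rose and 2 fell in each treatment. The background was 32.6% and 32.5% of all genes in DMSO and 32% and 31.5% in cisplatin. EEF1B2 rose by 0.76 in DMSO and 0.59 in cisplatin, EEF1G by 0.74 and 0.61, and EEF1A1, which carries charged transfer RNA to the ribosome, by 0.68 and 0.55. The complex scaffold genes EEF1E1 (fell by 0.47 and 0.69) and AIMP2 (fell by 0.40 and 0.29) went down, and AIMP1 was at 0.04 and -0.14 without a call. The median change of this list was 0.46 in DMSO and 0.36 in cisplatin.

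Of 12 genes of mitochondrial transfer RNA processing, charging and delivery, 1 rose and 4 fell in DMSO and 0 rose and 5 fell in cisplatin (medians -0.05 and -0.20), against a background of 32.6% higher and 32.5% lower in DMSO and of 32% and 31.5% in cisplatin. ELAC2, which trims the ends of transfer RNA precursors, fell by 0.93 in both, and TSFM, a mitochondrial elongation factor, by 0.46 and 0.51. GTPBP3, which takes part in transfer RNA modification, fell by 0.34 in DMSO and was at -0.17 in cisplatin. TRMU, which modifies mitochondrial transfer RNAs, fell by 0.52 in cisplatin and was at -0.22 in DMSO. GATB, a subunit of the amidotransferase that completes mitochondrial glutaminyl transfer RNA, rose by 0.27 in DMSO, and GATC, another subunit, fell by 0.30 and 0.34. Of 4 genes of transfer RNA modification and proofreading tested, YRDC, which takes part in a modification of transfer RNA, fell by 0.42 and 0.40 and DTD1, which removes D-amino acids from transfer RNA, rose by 0.25 and 0.14.

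Of 15 amino acid response genes tested, 11 rose and 4 fell in DMSO, and 11 rose and 1 fell in cisplatin (medians 0.43 and 0.34), where 32.6% of all genes rose and 32.5% fell in DMSO and 32% and 31.5% in cisplatin. TRIB3 rose by 2.53 on the log2 scale in DMSO and 2.50 in cisplatin, SESN2 by 2.41 and 2.40 and SHMT2 by 0.85 and 0.86. ASNS, the asparagine synthetase, rose by 0.73 and 0.61, and ATF4 itself by 0.50 and 0.34. GCN1, a coactivator of the kinase that senses uncharged transfer RNA, fell by 0.70 and 0.44. Between cisplatin and DMSO, edgeR called 0 of the 38 tested genes of these lists at 24 h and 0 at 72 h, with 0 and 6 at an unadjusted p under 0.05 (at 72 h ATF4, DTD1, EEF1A1, EEF1B2, GCN1 and TRMU), where 260 and 1311 of the 10444 genes tested passed the same limit.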

How the data were processed

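Poly(A)+ RNA of 12 TYK-nu libraries was sequenced as directional paired-end libraries. The authors trimmed reads (Trim Galore 0.6.0, FastQC 0.11.8), aligned them to GRCh38 (HISAT2 2.1.0) and counted them per gene with HTSeq-count on separate exon and intron annotations of Ensembl release 98. The deposited values are whole-number counts, not normalized. The strand option is not given in the sources used here. Members other than those noted above also overlap annotated genes, so reads shared with these are uncertain. Among them are EARS2 (GGA2) and YARS2 (long noncoding RNA models) on the same strand. On the opposite strand, AARS2 overlaps TMEM151B, YARS2 overlaps DNM1L and WARS1 overlaps WDR25. 0 columns were left unmapped. Symbols, positions and transcript lengths came from GENCODE release 44 (17485 of 17508 genes matched).

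Exon and intron counts were each tested with edgeR 4.0.16 (filterByExpr, TMM, quasi-likelihood F-test, 12 libraries in one fit, Benjamini-Hochberg threshold 0.05) in R 4.3.3. CPM use TMM-scaled library sizes, of exon or of intron counts. The ratio was tested by binomial logistic regression (Wald test) for genes with 1 or more exon counts and 1 or more intron counts in every library compared, and by edgeR with a term per library for genes in which 3 or more libraries held 10 or more counts of both kinds. The tests were tested on simulated data. Alternatives were DESeq2 1.42.0, its size factors, no filter, the replicate number as a block, the 6 libraries compared, exon library sizes for introns, quasi-binomial dispersion, a minimum of 10 counts for logistic regression, thresholds of 0.01 and 0.1, and each library left out. Tables and plots used Python 3.11.15, numpy 2.4.6, pandas 2.3.3 and matplotlib 3.10.9.

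The members, the pathway lists and the naming rule were chosen with earlier results of these data known. The rule gave library values for up to 10 called members with the largest exon change whose groups did not overlap, and up to 6 each by intron counts and ratio. HARS1, HARS2, KARS1, GARS1, TARS3, FARSA, FARSB, EPRS1 and the 3 highest and 3 lowest members by level were always named, with up to 3 called genes per pathway list and comparison. Values of IARS1 and PARS2, the smaller called changes, ATF4, ASNS, GCN1, AIMP1, AIMP2, GATB, GATC, YRDC and DTD1 were given in addition, with knowledge of them. Every library entered the main tests, and protein sequences were not analysed here. MUC16 and MSLN, also on the list of ovarian markers, were not among its 4 genes tested on exon counts. Their levels are not reported here. Some members entered all counts but are not reported here by name, nor drawn. Depth is given as total counts, and intervals of 2 standard errors rest on 3 libraries per group.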

Additional observations from a re-analysis of the deposited data

How the results depend on the processing

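No called direction turned under any alternative run, while the cytosolic median, which lay near 0, crossed 0 with single libraries left out. Of 50 exon calls over time, 50 were kept with DESeq2's size factors and 49 each with DESeq2, without the filter, with the 6 libraries compared and with the block; the lost call was PARS2 in DMSO each time. Of 26 intron calls, 21 were kept with exon library sizes, which lowered the number of members with higher intron counts in cisplatin from 8 to 5, lost, among others, MARS1 in both treatments and GARS1 and LARS1 in cisplatin, and moved the median of all genes by less than 0.1; 25 were kept with DESeq2, without the filter and with the 6 libraries compared. In place of logistic regression, edgeR called 0 and 0 members for cisplatin at 24 and 72 h. Over time it called 1 higher and 2 lower in DMSO and 3 higher and 2 lower in cisplatin. A quasi-binomial model called 0, 0, 0, 0, 1 and 0 members in the same order. Over all genes it called 0 and 0 for cisplatin, 64 over time in DMSO and 97 in cisplatin. Logistic regression called 3278 and 3984 of all genes over time. Logistic regression takes each read as independent, whereas the other tests take in the spread between libraries.

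With single libraries left out, exon counts gave 7 to 8 members higher and 15 to 17 lower in DMSO, and 8 to 9 and 15 to 17 in cisplatin. Members with lower intron counts numbered 2 to 4 in DMSO (2 without DMSO 72 h replicate 1 or 3) and 2 to 6 in cisplatin (3 and 2 without cisplatin 72 h replicates 1 and 2). Logistic calls for cisplatin ranged from 3 to 10 at 24 h and from 2 to 6 at 72 h. edgeR ratio calls ranged from 0 to 1 higher and 1 to 2 lower in DMSO and from 1 to 4 higher and 1 to 2 lower in cisplatin. The cytosolic median ranged from -0.03776 to 0.00489 for cisplatin at 72 h and from -0.02509 to 0.04961 over time in DMSO. The mitochondrial median ranged from -0.2408 to -0.1578 in DMSO and from -0.2023 to -0.1418 in cisplatin. EPRS1, AARS2 and GARS1 intron calls were among those lost.

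Deviations from the group means were not shared by equally numbered libraries (correlations from -0.203 to 0.131), so the numbers were not taken to pair them. With the replicate block, exon counts gave 7 members higher and 17 lower in DMSO and 9 and 17 in cisplatin, intron counts gave 9 and 4, and 8 and 5, and cisplatin gave 0 calls in both. Logistic regression with the block gave 8 and 6 members for cisplatin, 5 higher and 6 lower in DMSO, and 7 and 5 in cisplatin. Over all genes, exon calls for cisplatin at 72 h numbered 3, but 85 with DESeq2, 154 without the filter and 0 to 72 with single libraries left out; at 24 h 0 became 7 without the filter. Intron calls for cisplatin at 24 h numbered 2 and became 0 with DESeq2, the block or exon library sizes and 5 without the filter, and at 72 h 4 became 19 without the filter and 26 in 6 libraries. The cause of these shifts was not tested. Intron estimates were less precise than exon estimates: the median standard error for cisplatin at 24 h was 0.173 for intron counts and 0.0577 for exon counts.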
